A study of Mus musculus with 12 samples.

Results

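Immunoglobulin transcripts were followed in RNASeq libraries of T cells from mouse spleen. The genes described here are the variable (V) and constant genes of the antibody heavy, kappa and lambda chains. They were chosen by their annotation (biotype IG_V_gene or IG_C_gene in GENCODE vM21, build GRCm38) and selected on a count of at least 100 summed over all 12 libraries. This gave 189 genes of the 231 so annotated, among 49315 genes in the table. Of them 85 were heavy V, 89 kappa V and 3 lambda V segments, and 12 were constant genes. The heavy chain members lie on chromosome 12, the kappa members on chromosome 6 and the lambda members on chromosome 16. Of the other 42 annotated genes, 4 had no count. Just inside the threshold were Igkv9-129 with 111 counts and Ighv12-3 with 113, and just outside it Ighv15-2 with 99 and Igkv4-92 with 85. The choice used the total count, so the overall height of these genes is not a finding. The rule did not use the groups, but this set of genes was taken up with earlier results of these data known.

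An antibody consists of paired heavy and light chains, and each developing B cell joins its own V segment to D and J segments before transcribing it together with a constant gene. The constant gene of the heavy chain sets the class, with Ighm for IgM, Ighd for IgD, Ighg for IgG, Ighe for IgE and Igha for IgA. Naive B cells carry IgM and IgD on their surface and shut Ighd off when they become plasma cells, which secrete antibody and hold very large amounts of its mRNA. T cells do not rearrange these genes, and the label of the libraries is T cell, so these transcripts stand beside the T cell transcripts of the same library. In such bulk libraries more antibody-producing cells and more antibody RNA per cell cannot be told apart.

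The mice were 12-week-old males. The study traces the founders of its miR-214 line to a mixed S129/C57 background. It also names C57BL/6 mice and, for its adoptive transfers, a backcross of the line to C57BL/6N. The labels of the 12 libraries give no strain. WT (miR-214+/+) and miR-214-/- mice, in which the microRNA is lacking in all tissues, received vehicle (sham) or angiotensin II (Ang II, a hormone that raises blood pressure) at 490 ng/kg per day by osmotic minipump for 14 days. Each of the 4 groups had 3 mice with 1 library each, and T cells were obtained by magnetic negative selection, a step that removes other cells with antibodies and leaves T cells untouched. Libraries held about 21126900 to 29606000 counts, of which 24867 to 518606 were counts of the members. The miR-214 gene itself had 0 counts in all 12 libraries, WT included, so these polyA libraries do not check the genotype. T cell identity was present throughout, with the summed level of 14 T cell genes between 4047 and 7119 CPM (counts relative to library size, scaled by the trimmed mean of M-values). The reference genome is that of C57BL/6, which carries Ighg2c where other strains carry Ighg2a, and V alleles differ between strains as well. How far S129 alleles lowered the count of a segment was not tested.

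The V segments at the centre of the results are shown by the last 90 bases of their V exon, 5′ to 3′ on the coding strand, as annotated in GENCODE vM21 on GRCm38. Capitals mark the codon of the conserved cysteine just before the third complementarity-determining region, where the segment is joined to D or J. The first pair of heavy and of kappa segments had the highest counts, Ighv1-67 and Igkv4-79 had the largest increase under Ang II among called segments of their chain, and Ighv2-4 and Igkv4-80 were the segments most concentrated in a single library.
Ighv2-9 (chr12:113879096-113879185, minus strand): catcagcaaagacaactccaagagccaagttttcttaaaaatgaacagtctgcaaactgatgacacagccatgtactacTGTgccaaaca
Ighv5-17 (chr12:113859149-113859238, minus strand): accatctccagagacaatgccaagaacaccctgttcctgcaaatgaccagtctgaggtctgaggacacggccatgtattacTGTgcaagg
Igkv1-110 (chr6:68271178-68271267, plus strand): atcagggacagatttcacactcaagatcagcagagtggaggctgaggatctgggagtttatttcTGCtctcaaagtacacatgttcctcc
Igkv1-117 (chr6:68121738-68121827, plus strand): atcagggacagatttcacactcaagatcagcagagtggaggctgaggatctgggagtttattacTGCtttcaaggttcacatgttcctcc
Ighv1-67 (chr12:115603940-115604029, minus strand): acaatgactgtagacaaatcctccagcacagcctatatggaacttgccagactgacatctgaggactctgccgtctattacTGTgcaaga
Igkv4-79 (chr6:69042972-69043061, minus strand): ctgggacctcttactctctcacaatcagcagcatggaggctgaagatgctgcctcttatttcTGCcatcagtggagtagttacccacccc
Ighv2-4 (chr12:113653291-113653380, minus strand): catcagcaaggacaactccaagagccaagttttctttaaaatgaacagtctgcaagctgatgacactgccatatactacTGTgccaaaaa
Igkv4-80 (chr6:69016558-69016647, minus strand): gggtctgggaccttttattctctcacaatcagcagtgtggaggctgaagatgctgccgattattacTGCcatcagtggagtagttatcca
In 176 of the 177 V members an in-frame cysteine codon lay within 45 bases of the end of the annotated exon, as TGT in 147 and TGC in 29, and no member had a stop codon in frame. No annotated transcript of Ighv1-67 had ATG at the start of its coding sequence, and whether the segment gives a protein was not tested. Igkv1-110 and Igkv1-117 differed at 4 of the printed 90 bases. Such likeness bears on counting, since reads that match more than 1 gene were not counted: 66 of the 189 members shared at least 1 window of 100 bases with another annotated gene, and 4 shared more than 50% of their windows (Ighv1-71 with 96.9%, Igkv6-20, Igkv8-16 and Igkv2-137). None of the 12 constant genes shared such a window. The study's reads came in pairs and were longer than such a window, so a read can match 1 gene where a window is shared. How many reads the 4 genes lost was not tested, and their levels are uncertain.

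The lambda pair Iglv1 and Iglv2 is shown in the same way, with capitals at the bases where the segments differ, because their balance changed between libraries.
Iglv1 (chr16:19085017-19085106, minus strand): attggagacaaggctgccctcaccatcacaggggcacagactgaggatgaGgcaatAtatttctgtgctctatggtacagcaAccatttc
Iglv2 (chr16:19260401-19260490, minus strand): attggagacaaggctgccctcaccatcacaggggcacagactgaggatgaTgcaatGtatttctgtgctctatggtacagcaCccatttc
They differed at 3 of these 90 bases and at 8 of the last 300 bases of the exon, an identity of 97.3%.

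Antibody transcripts were present in every T cell library, at very different levels. Together the 189 genes took from 0.107% to 2.28% of all counts. In WT sham mice their summed level was 2536, 7083 and 1132 CPM, and in WT Ang II mice 5910, 13698 and 21947 CPM. In miR-214-/- mice it was 1388, 10273 and 9053 CPM after sham and 12011, 3186 and 1863 CPM after Ang II. The mean ± SD (n = 3) of the WT mice was 3583 ± 3111 CPM without and 13852 ± 8020 CPM with Ang II, and that of the miR-214-/- mice was 6904 ± 4817 CPM and 5687 ± 5517 CPM. The highest library of WT sham lay above the lowest of WT Ang II, and in miR-214-/- mice the ranges of the sham and Ang II libraries overlapped widely. The library with the most exceeded that with the least 19.4-fold. No test was made on this sum, because its members were chosen with results known.

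**Figure D1:**
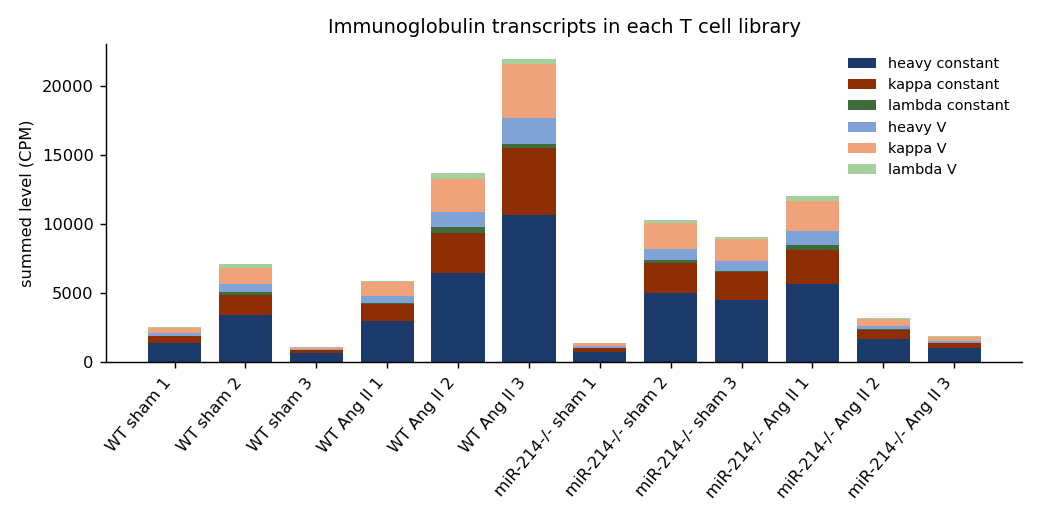
Summed level of the 189 immunoglobulin genes in each of the 12 libraries (y axis, CPM, starting at 0; x axis, library), stacked by class of gene. WT Ang II mouse 3 stands highest at 21947 CPM and WT sham mouse 3 lowest at 1132 CPM.

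Constant genes dominated. The heavy constant genes gave 49.1% of all counts of the members, Igkc 21.02%, kappa V segments 17.4%, heavy V segments 8.19%, and the lambda V and constant genes 2.20% and 2.14%. Ighm, Igkc and Igha together took 55.9%. Per kilobase of annotated exon, the mean level over the 12 libraries was 2966 CPM for Igkc, the only kappa constant gene, 923 for Ighm and 326 for Igha. On the same per-length scale it was 166 for both Ighg3 and Iglc1, 132 for Ighg2c, 108 for Iglc2, 94.0 for Ighg1, 74.0 for Ighg2b and 38.9 for Iglc3. The lowest were 14.1 for Ighd and 8.15 for Ighe. Among V segments the per-length level was highest for Iglv1 at 293.7 CPM, Igkv1-110 at 214.45 and Igkv1-117 at 167.

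Ang II was followed first in WT mice, the comparison that asks how the antibody transcripts of the T cell preparation moved with hypertension. Here 27 of 185 members that passed the filter on low counts were called higher by edgeR's quasi-likelihood test (adjusted p below 0.05 and absolute log2 fold change above 1), that is 14.6% of them, against 7.01% of all 16012 genes tested, and 0 were called lower. At an unadjusted p below 0.05 there were 84 members, or 45.4%, against 35.6% of all genes. The log2 fold change was above 0 in 184 of the 185, with a median of 1.97, where the median of all genes was −0.02. All 3 Ang II libraries lay above all 3 sham libraries in 49 members (26.5%), against 19.1% of all genes. The members move together across libraries, so these counts are not counts of independent events. The set was also chosen with earlier results of these data known, so its excess over all genes is a description.

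The 3 constant genes called were those of IgG subclasses. Ighg2c, the heavy chain gene of IgG2c, stood at 45.5, 56.3 and 22.02 CPM in sham and 142, 410.2 and 519.7 CPM in Ang II, and the groups did not overlap. Its log2 fold change was 3.13 ± 0.54 (SE) with an edgeR adjusted p of 0.0117. Ighg1, the gene of IgG1, stood at 71.8, 109 and 29.4 CPM in sham and 331, 325 and 987 CPM in Ang II. Its groups did not overlap either, and its log2 fold change was 2.99 ± 0.63 (SE) (edgeR adjusted p = 0.0211). Ighg3, the gene of IgG3, went from 102, 169 and 95.8 CPM to 352, 421 and 2074 CPM, without overlap and with WT Ang II mouse 3 far above the others. Its log2 fold change was 2.99 ± 0.73 (SE) (edgeR adjusted p = 0.0327). Ighg2b, the gene of IgG2b, stood at 65.8, 101 and 12.6 CPM in sham and 99.1, 287 and 615 CPM in Ang II. There sham mouse 2 lay above Ang II mouse 1, and the log2 fold change of 2.497 ± 0.86 (SE) was not called (edgeR adjusted p = 0.0834).

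Ighm, the gene of IgM, stood at 663, 1749 and 334 CPM in sham and 1403, 2840 and 4505 CPM in Ang II. Sham mouse 2 again lay above Ang II mouse 1, and the log2 fold change was 1.69 ± 0.65 (SE) (edgeR adjusted p = 0.113). Igkc stood at 494, 1422 and 205 CPM in sham and 1203, 2931 and 4847 CPM in Ang II, with a log2 fold change of 2.103 ± 0.77 (SE) (edgeR adjusted p = 0.0977), and sham mouse 2 lay above Ang II mouse 1 here too. Igha, the gene of IgA, went from 347, 1210 and 168 CPM to 653, 2082 and 1918 CPM, with overlap and a log2 fold change of 1.45 ± 0.75 (SE) (edgeR adjusted p = 0.2099). None of these 3 passed the test, although their highest Ang II libraries lay well above every sham library. Ighe, the gene of IgE, was low at 0.436, 16.97 and 0.819 CPM in sham and 3.93, 37.98 and 14.6 CPM in Ang II. The log2 fold changes of the lambda constant genes were 1.58 ± 1.05 (SE) for Iglc1, 1.55 ± 0.86 (SE) for Iglc2 and 1.16 ± 0.67 (SE) for Iglc3, and none of them was called.

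Ighd was the 1 member with a negative value. It stood at 78.7, 9.596 and 21.1 CPM in sham and 19.9, 28.7 and 17.6 CPM in Ang II, so that sham mouse 1 was highest and the groups overlapped. Its log2 fold change was −0.71 ± 0.69 (SE) (edgeR adjusted p = 0.498), and without that mouse the value was 0.55.

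**Figure D2:**
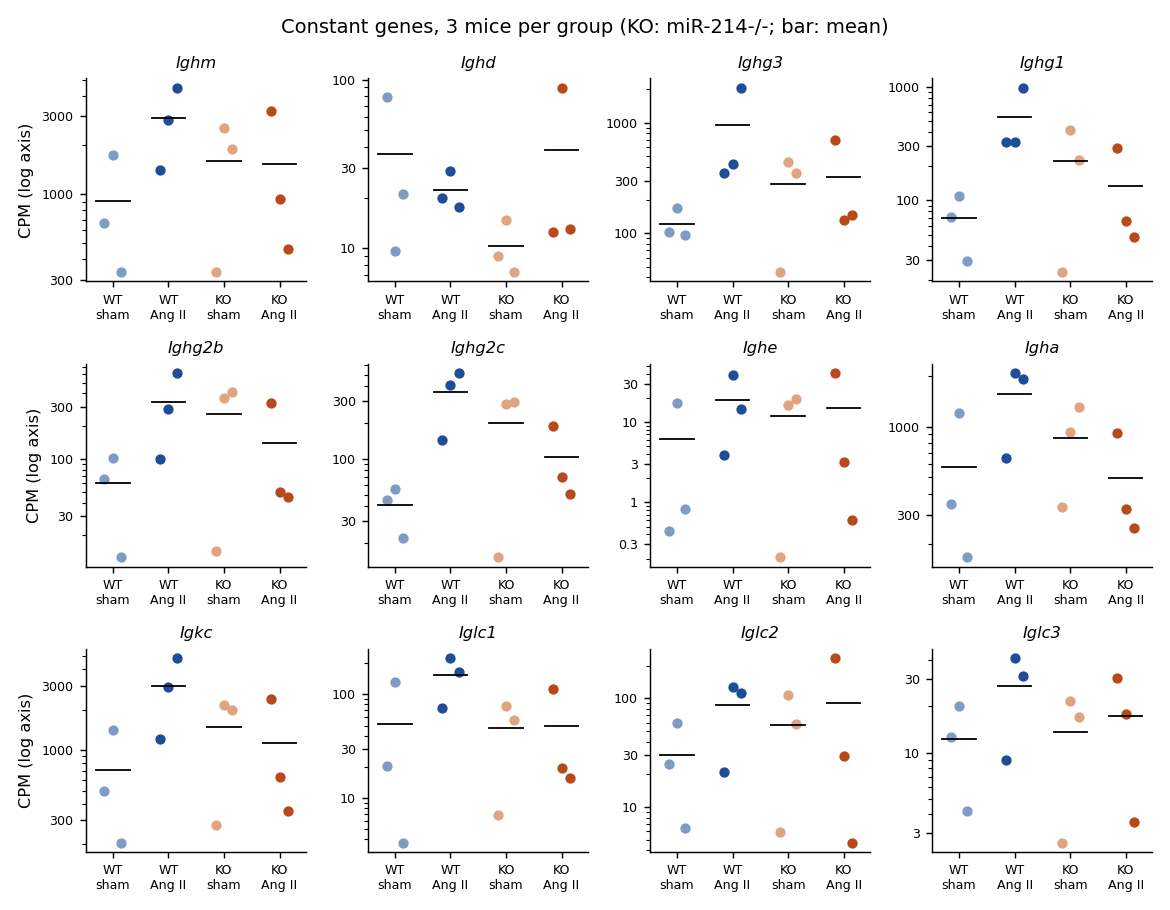
Level of each of the 12 constant genes in each library (y axis, CPM on a log axis; x axis, group; points, single mice; bars, group means). In WT the 3 Ang II points of Ighg1, Ighg2c and Ighg3 all lie above the 3 sham points, while in miR-214-/- mice (KO) the groups overlap in every panel.

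Of the V segments, 13 of 82 heavy and 11 of 88 kappa segments tested were called in WT, all higher, and 0 of 3 lambda segments. Ighv1-67 had the smallest adjusted p of all members. It stood at 3.66, 3.69 and 2.37 CPM in sham and 25.7, 45.2 and 56.3 CPM in Ang II, a difference of 3.73 ± 0.34 (SE) on the log2 scale (edgeR adjusted p = 0.00174). The sham mice were close to each other and every Ang II mouse was well above them. Igkv4-57-1 stood at 1.44, 2.82 and 0.9101 CPM in sham and 13.4, 12.8 and 18.96 CPM in Ang II (log2 fold change 3.14 ± 0.42 (SE), edgeR adjusted p = 0.00546). Igkv4-79 had the largest log2 fold change of the called members, 3.92 ± 0.71 (SE), from 0.784, 2.02 and 0.4095 CPM in sham to 7.44, 12.8 and 28.6 CPM in Ang II. These 3 segments lie at chr12:115603940-115604376, chr6:69544359-69544907 and chr6:69042972-69043505, each on the minus strand of GRCm38.

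Among the other called members with the largest log2 fold changes were Igkv3-3 at 3.48, Ighv3-8 at 3.45, Ighv3-6 at 3.41, Igkv3-5 at 3.27, Ighv1-80 at 3.25 and Igkv3-2 at 3.200. Over the alternative settings tried, the call held in 8 of 14 for Igkv3-3, 10 of 15 for Ighv3-8 and 12 of 15 for Ighv3-6. It held in 11 of 15 for Igkv3-5, 9 of 14 for Ighv1-80 and 8 of 15 for Igkv3-2. Igkv3-3 was highest in a miR-214-/- sham library, as given below. The smallest among the called were Ighv1-42 at 1.76, Ighv1-39 at 1.87, Ighv4-1 at 2.14, Ighv6-7 at 2.16, Igkv6-15 at 2.29, Igkv10-94 at 2.34, Igkv19-93 at 2.62, Ighv1-81 at 2.74, Ighv1-85 at 2.78 and Ighv2-6 at 2.82. Over all 27 the edgeR adjusted p lay between 0.00174 and 0.0485. In each of the 27 the Ang II libraries stood above the sham libraries, as they did in 19.1% of all genes tested. The call was made on the same libraries, so this separation is not further support. By family of related segments, 8 of 37 tested Ighv1 segments were called, 4 of 8 Igkv3, 3 of 20 Igkv4 and 2 of 4 Ighv3. Ighv2 and Igkv6 had 1 of 8 each, Igkv8 had 1 of 9, and both Ighv5 and Igkv1 had 0 of 8. Beside these stand 14.6% of all members tested and 7.01% of all genes called higher. Those differences between families were not tested.

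The 5 heavy and the 5 kappa segments with the most counts included 1 called segment. Of the 5 leading heavy segments, the log2 fold changes in WT were 2.103 for Ighv2-9, 2.73 for Ighv5-17, 1.503 for Ighv9-3, 2.31 for Ighv9-1 and 1.31 for Ighv6-6, with none called. Of the 5 leading kappa segments they were 1.88 for Igkv1-110, 2.05 for Igkv1-117, 0.23 for Igkv3-4 and 2.17 for Igkv10-96, with Igkv3-2 the 1 called. Ighv5-17 shows the spread behind this, with 20.7, 14.8 and 4.004 CPM in sham and 17.4, 51.8 and 189 CPM in Ang II. Sham mouse 1 lay above Ang II mouse 1, and the edgeR adjusted p was 0.08203.

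The number called in WT rested on single mice. Without WT sham mouse 1 it was 4, without sham mouse 2 it was 61, and without sham mouse 3 it was 11. Without WT Ang II mouse 1 it was 73, without mouse 2 it was 16, and without mouse 3 it was 8. As a share of the members tested, the lowest of these were 2.13% without sham mouse 1 and 4.30% without Ang II mouse 3, where 3.39% and 3.61% of all genes were called in either direction. The highest were 39.0% without Ang II mouse 1 and 32.6% without sham mouse 2, against 8.14% and 5.65% of all genes. The larger share of called members than of called genes was thus lost without sham mouse 1 and small without Ang II mouse 3. The median log2 fold change stayed between 1.47 (without Ang II mouse 3) and 3.28 (without sham mouse 2). Ighv1-67 and Igkv4-57-1 were called in each of these 6 settings and in each of the 9 other settings tried for them. Among the constant genes, the call held in 14 of these 15 settings for Ighg2c, 11 for Ighg1 and 10 for Ighg3. Conversely, Igkc was called in 3 of the 15, Ighg2b in 2, and Ighm, Igha, Ighe and Iglc1 in 1 each.

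Marker genes of other cell types moved with Ang II in WT as well, and their part in the result was not tested. Of 18 B cell genes 0 were called, and their summed level was 159 to 621 CPM in sham and 222 to 295 CPM in Ang II. The log2 fold change was below 0 in 16 of the 18, with a median of −0.30. Of 16 genes of plasma cells and antibody secretion 1 was called higher, Ell2, an elongation factor used by plasma cells, which was named after its value was seen. Of the 16, 0 had a log2 fold change below 0. An edgeR adjusted p below 0.05 was found for 3, Ell2, Txndc5 and Xbp1, and for 18.8% of all genes. Xbp1 was named after its value was seen. The summed level of this list was 669 to 1404 CPM in sham and 1164 to 2705 CPM in Ang II. Of 14 T cell genes 0 passed the fold threshold of the call, but all 14 had a log2 fold change below 0 and 10 an edgeR adjusted p below 0.05, with a summed level of 6142 to 7119 CPM in sham and 4047 to 4930 CPM in Ang II. Of 10 tested red-cell precursor genes 7 were called higher, including Car2, Slc4a1 and Tfrc, with 316.5 to 395 CPM in sham and 1523 to 3473 CPM in Ang II. All 9 neutrophil genes were called higher, including S100a9, Mpo, Ngp and Ltf, with 198 to 250.4 CPM in sham and 1101 to 3288 CPM in Ang II. Of 9 macrophage and monocyte genes 1 was called higher, Lyz2, with 499 to 732 CPM in sham and 658 to 2614 CPM in Ang II. Every gene of these 6 lists that the table holds had counts. Car2, Slc4a1, Tfrc, S100a9, Mpo, Ngp, Ltf and Lyz2 were named after their values were seen.

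In miR-214-/- mice the same comparison gave 0 called members of 176 tested, against 0.0% of all 15937 genes. At an unadjusted p below 0.05 there were 3 members (12.2% of all genes), and by DESeq2 0 of 141 with an adjusted p. No member had all Ang II libraries above all sham libraries (8.83% of all genes) and none had them all below (10.5% of all genes). The median log2 fold change was −0.36, where that of all genes was 0.03. It was −1.54 without Ang II mouse 1 and 0.15 without sham mouse 2, so its sign rested on single mice. Ighg2c stood at 15.1, 285 and 295 CPM in sham and 186, 70.1 and 51.3 CPM in Ang II, and Ighg1 at 23.3, 419.8 and 228 CPM and 287, 65.4 and 47.9 CPM. For both, sham mouse 1 was lowest of the 6 and the other 2 sham mice were among the highest. Igkc stood at 276, 2177 and 1981 CPM in sham and 2415, 629 and 354 CPM in Ang II, with a log2 fold change of −0.37 ± 0.895 (SE). Ighm stood at 332, 2532 and 1907 CPM and 3223, 939 and 461 CPM, and its log2 fold change was −0.03 ± 0.87 (SE). The log2 fold changes of the other constant genes were −0.77 for Igha, −0.94 for Ighg2c, −0.72 for Ighg1, −0.88 for Ighg2b, 0.23 for Ighg3 and 0.34 for Ighe. Ighd stood at 9.05, 14.8 and 7.22 CPM in sham and 12.5, 89.5 and 13.04 CPM in Ang II, and here Ang II mouse 2 alone was high. That library was also highest of the 12 for the summed B cell list, at 757 CPM. The median log2 fold change of the B cell list was 1.21 in miR-214-/- mice, with 0 of 18 genes called. The red-cell precursor list stood at 257 to 751 CPM in sham and 451 to 2567 CPM in Ang II, and the neutrophil list at 238 to 943 CPM and 625 to 2986 CPM, and their part in the result was not tested.

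**Figure D3:**
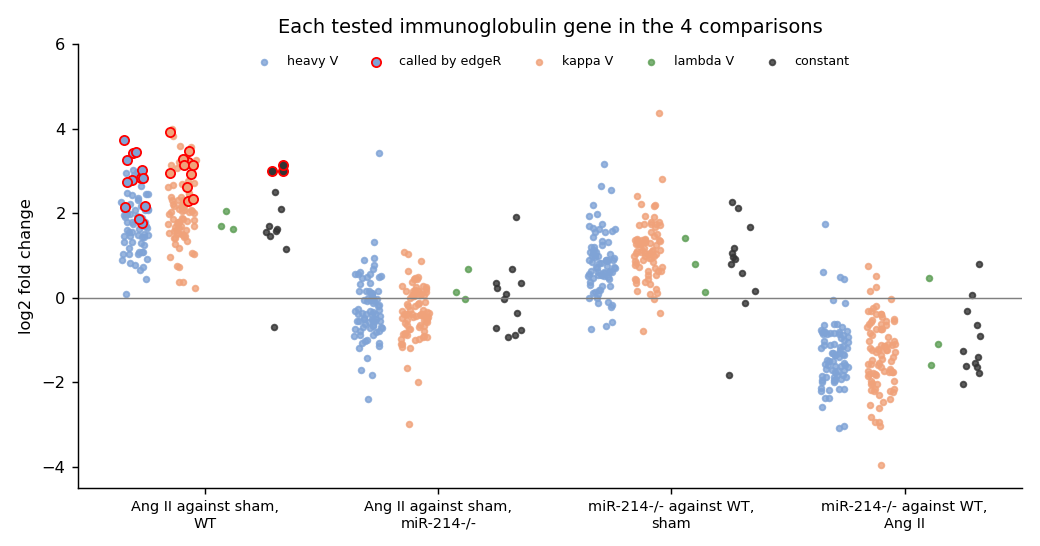
Log2 fold change (y axis) of every tested member in the 4 comparisons between 2 groups (x axis), in columns for heavy V, kappa V, lambda V and constant genes, with a red rim for the 27 called members. The values lie above 0 in 184 of 185 members in WT and on both sides of 0 in miR-214-/- mice, where the median is −0.36.

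Between genotypes after sham, 0 of 173 members were called, against 0.0189% of all 15913 genes. At an unadjusted p below 0.05 there were 11 members, against 6.67% of all genes, and DESeq2 called 1, Igkv4-57-1 (0.578%, against 0.289% of all genes). The median log2 fold change was 0.96, where that of all genes was −0.01, and 159 of 173 values lay above 0. The median was 2.19 without WT sham mouse 2 and 0.52 without miR-214-/- sham mouse 2. In 3 members, Igkv4-57-1, Igkv1-99 and Igkv3-9, the last pair named after their values were seen, all miR-214-/- libraries lay above all WT libraries, against 5.4% of all genes. The 2 genotypes each had 1 library in this comparison that stood apart from the others of its group, mouse 2 in WT and mouse 1 in miR-214-/-. Ighg2c, at the values above, had a log2 fold change of 2.26 ± 0.898 (SE) between the genotypes (edgeR adjusted p = 0.706). Without miR-214-/- sham mouse 1, 4 members were called (2.16%, against 0.184% of all genes). These were Ighg2c, Ighv1-67, Igkv3-12 and Igkv4-55, the last named after its value was seen.

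After Ang II, 0 of 183 members were called between genotypes, against 0.0% of all 16215 genes. At an unadjusted p below 0.05 there were 42 members, against 8.56% of all genes, and DESeq2 called 5 (2.84%, against 0.143% of all genes), all lower in miR-214-/-, namely Ighv1-9, Ighv1-67, Ighv1-59, Ighv1-81 and Igkv5-45, of which Ighv1-9 and Igkv5-45 were named after their values were seen. The median log2 fold change was −1.34, with 11 of 183 values above 0 and a median of 0.00 over all genes. It was −2.61 without miR-214-/- Ang II mouse 1 and −0.80 without WT Ang II mouse 3. In 28 members all miR-214-/- libraries lay below all WT libraries, against 5.94% of all genes. Ighv1-67 was among them, at 25.7, 45.2 and 56.3 CPM in WT and 11.4, 15.7 and 7.504 CPM in miR-214-/-, with a log2 fold change of −1.88 ± 0.37 (SE) (edgeR adjusted p = 0.569). For Igkc the log2 fold change was −1.397 ± 0.800 (SE), for Ighm −0.91 ± 0.75 (SE) and for Igha −1.64 ± 0.62 (SE).

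The difference between the Ang II responses of the genotypes was tested itself, as an interaction over all 12 libraries. Of 188 members 0 were called, against 0.00596% of all 16770 genes. At an unadjusted p below 0.05 there were 45, against 14.8% of all genes, and DESeq2 called 2 of 157, Ighv1-67 and Ighv1-81, or 1.27%, against 3.22% of all genes. The median interaction was −2.26 on the log2 scale, where that of all genes was 0.01, and a negative value means that the log2 fold change under Ang II was lower in miR-214-/- than in WT. It was −3.72 without miR-214-/- Ang II mouse 1, −3.64 without WT sham mouse 2 and −1.81 at its smallest, without miR-214-/- sham mouse 2. It was −4.07 ± 1.25 (SE) for Ighg2c, −3.71 ± 1.34 (SE) for Ighg1, −2.47 ± 1.31 (SE) for Igkc, −1.72 ± 1.21 (SE) for Ighm and 2.62 ± 1.18 (SE) for Ighd. The smallest edgeR adjusted p among the members was 0.213, for Ighv1-67 at −4.42 ± 0.92 (SE). Without miR-214-/- Ang II mouse 1, 9 members were called (4.76%, against 5.35% of all genes). Without miR-214-/- sham mouse 1, 1 was called, Ighv1-67 (0.529% of the members, against 0.0174% of all genes). Thus the members called in WT were not shown by edgeR over all 12 libraries to respond differently in miR-214-/- mice. The 2 Ang II comparisons share no library, but each shares its libraries with the genotype comparisons and with the interaction.

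Composition was compared next, as the share of each class in the heavy constant transcripts of a library, per kilobase of exon. Ighm held the largest share throughout, from 47.7% to 62.6%, and Igha held 12.5% to 35.6%. The 4 IgG genes together held 11.97% to 36.9%, Ighd 0.179% to 6.36% and Ighe 0.0375% to 0.944%. In WT the IgG share was 19.6, 11.97 and 21.9% in sham and 29.2, 23.4 and 36.9% in Ang II, without overlap. As mean ± SD (n = 3) this was 17.8% ± 5.21 against 29.8% ± 6.78, with an exact two-sided permutation p of 0.10, the smallest that 3 against 3 allows. The Ighm share in WT was 55.8% ± 2.33 in sham and 50.2% ± 2.25 in Ang II, also without overlap (n = 3, exact permutation p = 0.10). The Ighg2c share of the heavy constant transcripts went from 4.36% ± 1.46 to 8.57% ± 1.42 in WT, without overlap (n = 3, exact permutation p = 0.10). After Ang II the Ighg1 share was 6.95% ± 2.53 in WT and 3.67% ± 0.518 in miR-214-/-, without overlap as well (n = 3, exact permutation p = 0.10). In miR-214-/- mice the IgG share was 12.5, 28.7 and 28.4% in sham and 23.7, 18.2 and 27.7% in Ang II, where the means were 23.2% in both groups. Among the 40 comparisons of shares made, only those named here as without overlap had none, and all others overlapped. Over the 40 the adjusted exact permutation p was 0.632 at its smallest. Since 3 against 3 cannot go below 0.10, no shift in composition could have passed a threshold of 0.05, and these tests do not show that composition was the same. The lambda share of the light constant transcripts ranged from 5.56% to 13.8%, and it overlapped between groups in all 4 comparisons.

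Across the 12 libraries the members followed a plasma cell gene, with Ighd as the exception. Jchain, which encodes the chain that joins IgM and IgA units, was taken as the marker, a choice made with its values known. Jchain stood at 177, 631 and 62.9 CPM in WT sham and 377, 1292 and 1541 CPM in WT Ang II. In miR-214-/- mice it stood at 106, 755 and 748 CPM in sham and 1000, 211 and 111 CPM in Ang II. A like profile was not particular to plasma cell genes. Klf1 of the red-cell precursor list stood at 8.28, 23.7 and 11.0 CPM in WT sham and 47.0, 172 and 137 CPM in WT Ang II. In miR-214-/- mice Klf1 stood at 12.3, 58.6 and 51.1 CPM and 97.5, 21.3 and 11.6 CPM. Alas2 of that list differed, with 264 CPM in WT Ang II mouse 1. Both were named after their values were seen. Ighd was highest in WT sham mouse 1 and miR-214-/- Ang II mouse 2, libraries that were not high for Jchain but held the most of the summed B cell list, at 621 and 757 CPM.

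As Jchain was chosen with its values known, its relations to the 12 constant genes are given as a description, with no test. On log2 of CPM + 0.1 over the 12 libraries, Igkc had r = 0.993 and rho = 1 with Jchain, and r was 0.990 without the 2 libraries farthest from the median of Jchain. Ighm had r = 0.985 and rho = 0.986. For the other heavy chain classes r was 0.968 for Igha, 0.916 for Ighg1, 0.908 for Ighg2c, 0.9495 for Ighg2b, 0.860 for Ighg3 and 0.923 for Ighe. Ighd had r = −0.208 and rho = −0.070, and r was −0.431 without the 2 farthest libraries. With the group means removed, r was 0.992 for Igkc and −0.212 for Ighd.

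**Figure D4:**
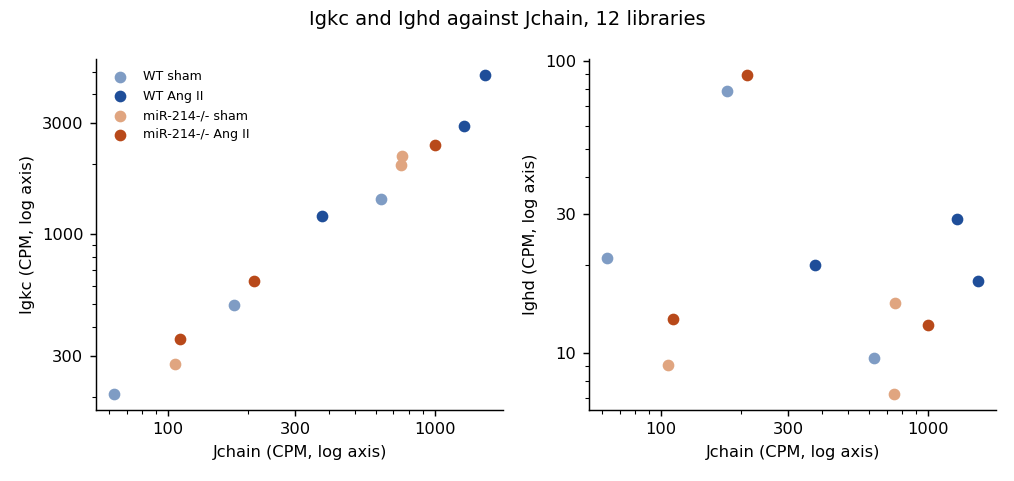
Igkc (left) and Ighd (right) against Jchain in the 12 libraries, all in CPM on log axes, coloured by group. Igkc rises with Jchain along 1 line, while Ighd is scattered and highest in 2 libraries of low or middle Jchain.

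As a description over all members, r with Jchain was above 0 in 188 of 189, the exception being Ighd. Over the 177 V segments it ranged from 0.404 to 0.988, with a median of 0.905. All these points share the same 12 libraries and the members share their level, so they are not independent. Of the plasma cell list, the mean level was highest for Jchain, Edem1, Txndc5 and Sec11c, and the WT log2 fold changes were 1.901, 0.01, 0.93 and 0.26. Of the B cell list it was highest for Cd72, Cd79a, Cd79b and Ms4a1, with WT log2 fold changes of −0.27, −0.15, −0.22 and −0.32. None of these 8 genes was called in any comparison.

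Genes for assembling and diversifying antibodies were read from the same comparison, in which 7.01% of all genes were called higher. Of 14 tested genes of V(D)J recombination, class switch and hypermutation, 1 was called in WT, the exonuclease gene Exo1, with a list median of 0.19. Prkdc, Msh6 and Xrcc6 were among the genes with the highest levels in that list, with WT log2 fold changes of −0.19, 0.52 and 0.303. Rag1 and Rag2, which cut V segments, stayed at or below 2.42 and 0.877 CPM. Of 5 tested germinal centre genes 1 was called, Gcsam, with a median of 0.14, and of 10 tested genes of Fc receptors and antibody transport 1, Fcer1a of the IgE receptor, with a median of 0.95. Of 3 tested pre-B cell genes 1 was called, Cd93, while Vpreb1, the surrogate light chain gene, had a log2 fold change of 0.54. The third, Il7r, had the highest mean level of the list at 843 CPM and went the other way. Its log2 fold change was −0.52 (edgeR adjusted p = 0.0290), below the fold threshold of the call. Exo1, Gcsam, Fcer1a, Cd93, Rag1, Rag2 and Vpreb1 were named after their values were seen. In the other 4 comparisons 0 genes of these lists were called.

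V segment use was broad in every library. Of the 85 heavy segments 78 to 85 were detected in a library, and of the 89 kappa segments 78 to 89. The fewest heavy segments that together held 50% of the heavy V counts numbered between 8 and 13, and the fewest kappa segments between 11 and 15. The leading heavy segment was Ighv5-17 in 5 libraries, Ighv2-9 in 3, Ighv9-3 in 2, and Ighv9-1 and Ighv2-2 in 1 each. Its share lay between 6.59% (Wilson 95% interval 6.197 to 6.997, 974 of 14789 counts, WT sham mouse 2) and 12.3% (11.9 to 12.7, 3176 of 25758 counts, miR-214-/- Ang II mouse 1). The leading kappa segment was Igkv1-110 in 4 libraries, Igkv3-4 in 4, Igkv6-17 in 2, and Igkv6-15 and Igkv3-2 in 1 each. Its share lay between 5.16% (4.96 to 5.37, 2258 of 43737 counts, miR-214-/- sham mouse 3) and 13.2% (12.5 to 14.1, 893 of 6743 counts, miR-214-/- Ang II mouse 3). These intervals cover counting error only.

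Igkv1-110 was among the 5 leading kappa segments in 12 of 12 libraries and Igkv1-117 in 11, at 4.91% to 9.83% and 3.19% to 5.65% of the kappa V counts. Igkv3-4 varied most among the 10 leading kappa segments, from 1.60% to 13.2%, and Ighv6-6 among the 10 leading heavy segments, from 0.742% to 11.5%, with its peak in miR-214-/- Ang II mouse 1. Ighv3-6 stood at 2.36%, 1.90% and 1.32% of the heavy V counts in WT sham and 7.17%, 4.51% and 4.70% in WT Ang II, and the ranges did not overlap. By position, the 42 heavy segments nearest the constant genes held 70.8% to 79.7% of the heavy V level per kilobase and the other 43 the rest. The nearer 44 of the 89 kappa segments held 49.3% to 58.4% of the kappa V level. In WT, 5 near and 8 far heavy segments were called, and 7 near and 4 far kappa segments. Among all heavy segments tested 15.9% were called, among all kappa segments 12.5%, and among all genes 7.01% were called higher. The 2 chains went opposite ways, and the differences by position were not tested.

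**Figure D5:**
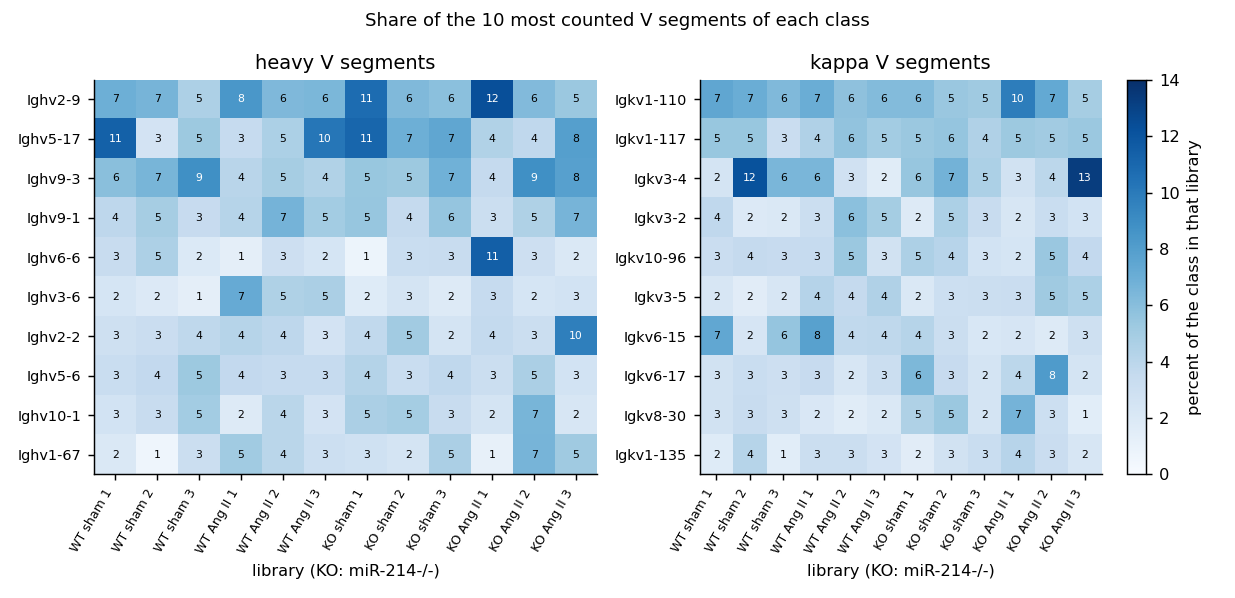
Share of the heavy V counts (left) and kappa V counts (right) of each library (x axis) taken by the 10 segments of the class with the most counts (y axis), in percent as rounded in each cell and by colour. Most cells lie between 2% and 7%, with single dark cells such as Igkv3-4 at 13.2% in miR-214-/- Ang II mouse 3.

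Single mice stood out for single segments. The largest share of summed CPM found in 1 library had a median of 26.1% over the 189 members. Ighv2-4 had 67.0% of its summed CPM in miR-214-/- Ang II mouse 1, at 20.9 CPM, where the other 11 libraries lay between 0.0415 and 3.72 CPM. In WT Ang II mouse 3 the share was 58.9% for Igkv4-80, 54.5% for Ighv2-3, 53.4% for Igkv18-36 and 52.0% for Igkv4-70. Ighv2-3 stood at 14.8, 16.7 and 112 CPM in the WT Ang II mice and at 2.66, 14.4 and 0.774 CPM in sham. Igkv3-3 had 49.4% in miR-214-/- sham mouse 2, at 4.13 CPM. WT Ang II mouse 3 held the highest level of 110 of the 189 members, WT Ang II mouse 2 that of 30 and miR-214-/- Ang II mouse 1 that of 23. Ighv2-4 shared 24.3% of its windows with another gene, mostly Ighv2-2, whereas Igkv4-80 shared 6.83%.

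The lambda segments of the pair shown above changed places in 1 mouse. Per kilobase, Iglv1 held 74.4, 79.4 and 71.2% of the lambda V level in WT sham and 87.96, 76.3 and 75.9% in WT Ang II. In miR-214-/- mice it held 74.5, 58.03 and 67.4% in sham and 46.5, 66.9 and 92.5% in Ang II. In miR-214-/- Ang II mouse 1, Iglv2 held 47.5%, slightly more than Iglv1, and in mouse 3 of the same group 2.53%. Iglc2, the constant gene that Iglv2 is usually expressed with, was highest in that mouse 1 as well, at 236 CPM, with 21.2, 128.0 and 113 CPM in WT Ang II. Iglv3 ranged from 3.86% to 21.6% of the lambda V level. The WT log2 fold changes were 1.69 ± 1.08 (SE) for Iglv1, 1.63 ± 1.28 (SE) for Iglv2 and 2.04 ± 0.802 (SE) for Iglv3, and none was called.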

How the data were processed

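RNA was measured by RNASeq in splenic T cells of 12 mice, 3 in each of 4 groups. The authors trimmed reads with Trimmomatic, aligned them with STAR to GRCm38 and counted uniquely mapped exonic reads per gene with featureCounts (Subread 1.5.2), and the deposited values are raw counts. The strand setting of that counting is not given in the sources used here. Reads that match several V segments are lost in such counting, and rearranged or mutated V regions align less well than germline ones.

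Gene names and biotypes came from GENCODE vM21, in which 49056 identifiers matched and 259 did not. Counts were filtered with filterByExpr, scaled by TMM and tested with edgeR 4.0.16 (quasi-likelihood, R 4.3.3) over all genes, with Benjamini-Hochberg adjustment. Each 2-group comparison was fitted on its own 6 libraries and the interaction on all 12. DESeq2 1.42.0, other scalings, filters, a replicate block and leaving out each library were alternatives. Depth was about 21126900 to 29606000 counts per library.

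Named genes were all constant genes, the segments with the most counts, the called members (at most the 10 highest and 10 lowest changes), the 6 members most concentrated in 1 library, those beside the threshold and, in lists, the genes with the highest mean level. Members and lists were chosen with earlier results of these data known. Nothing in the labels pairs mice across groups, and p-values measure the spread between mice. Single values of some list genes are not reported here.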

Additional observations from a re-analysis of the deposited data

How the results depend on the processing

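With 3 mice per group and a 19.4-fold range of summed immunoglobulin level, the number of members called in WT was not stable. It was 27 as reported, 50 with DESeq2, 67 without a filter on low counts and 14 when all 12 libraries were fitted together, and it ran from 4 to 73 when 1 library was left out (lowest without WT sham mouse 1, highest without WT Ang II mouse 1). Of the 27, all 27 were called with DESeq2 and without the filter, 11 in the fit over all 12 libraries and 4 without WT sham mouse 1. In the fit over all 12 libraries 7.45% of the members were called against 7.11% of all genes, with the block 8.11% against 6.03%, and without WT sham mouse 1 2.13% against 3.39%. With DESeq2 it was 26.6% against 8.21% and without the filter 35.4% against 4.88%. In the other comparisons 0 were called as reported. After sham, DESeq2 called 1 and leaving out 1 library gave 0 to 4, highest without miR-214-/- sham mouse 1. After Ang II, DESeq2 called 5. For the interaction, DESeq2 called 2 and leaving out 1 library gave 0 to 9, with 1 without miR-214-/- sham mouse 1 and 9 without miR-214-/- Ang II mouse 1. The log2 fold change of Ighd in WT was −0.71 and turned to 0.55 without WT sham mouse 1, with a range from −1.16 (without WT sham mouse 2) to 0.55 over the libraries left out. Apart from the fits on fewer libraries or another set of genes, the cause of these changes was not tested.

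With the replicate number as a block, 15 members were called in WT, 8 of them among the 27. Same-numbered WT libraries deviated from their group means with correlations of 0.198, 0.111 and −0.137. Between sham and Ang II in miR-214-/- mice the correlations were −0.560, −0.232 and −0.368. Between genotypes they were 0.0148, 0.201 and −0.286 after sham and −0.425, −0.165 and −0.119 after Ang II. These values cannot decide whether the numbers pair the mice, because each deviation is taken from a mean of only 3 libraries. The block left the number called at 0 in the other comparisons, but fewer members had an unadjusted p below 0.05, with 15 in place of 42 after Ang II, 16 in place of 45 for the interaction, 10 in place of 11 after sham and 1 in place of 3 in miR-214-/- mice.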
